A study of Mus musculus with 6 samples.

Results

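The genes of the urea cycle and of ammonia handling were followed in the livers of mice that make a misfolding human protein. The list held 10 genes: the urea cycle enzymes Cps1, Otc, Asl and Arg1, the activator enzyme Nags, the mitochondrial carriers Slc25a13 and Slc25a15, the glutaminase Gls2, and the pericentral genes Glul and Rhbg. Every probe set (a group of short probes designed to read 1 or more transcripts) annotated to exactly 1 of these genes was taken, whatever its value. This gave 13 probe sets for 9 genes, of 22626 probe sets tested and 12393 genes named. Otc had 3 probe sets, Slc25a15 and Glul had 2 each, the other 6 genes had 1 each, and Gls2 was not analysed here because no probe set named it alone.

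RNA came from whole liver of 3 PiZ and 3 wild-type mice, all 6 weeks of age, on 6 one-colour Affymetrix arrays, 1 for each mouse that the labels call a biological replicate. A human gene for the Z variant of alpha-1 antitrypsin is the transgene of PiZ mice. It encodes a secreted protease inhibitor whose Z form is retained in the endoplasmic reticulum of hepatocytes. Both groups were of C57BL/6 background, and the controls were wild-type. The promoter of the transgene and the sex of the animals were not used here. The question put to these genes is whether liver that makes the mutant protein keeps its usual ammonia-clearing programme. Arrays are named WT1, WT2 and WT3, and PiZ1, PiZ2 and PiZ3, by their replicate number, and values are always given in that order.

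The urea cycle converts toxic ammonia into urea. In mitochondria, Cps1 joins ammonia with bicarbonate to make carbamoyl phosphate, and Otc transfers it to ornithine. Citrulline then leaves for the cytosol, where argininosuccinate is built by Ass1 and split by Asl, and Arg1 releases urea and returns ornithine. The cycle runs mainly in hepatocytes around the portal tract. A thin ring of hepatocytes around the central vein instead takes up what ammonia escapes, through transporters such as Rhbg, and fixes it into glutamine with glutamine synthetase, encoded by Glul.

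One array stood apart from its group. The correlation of PiZ2 with PiZ3 was 0.993, while PiZ1 had 0.979 and 0.982 with them. PiZ1 correlated at 0.981 to 0.983 with wild-type arrays, against 0.962 to 0.97 for PiZ2 and PiZ3. The gap between 3′ and 5′ readings of the Gapdh control transcript, which widens when RNA is shortened, was 1.49 to 2.06 in wild-type, 1.99 in PiZ1, and 4.39 and 4.01 in PiZ2 and PiZ3 (log2). For beta-actin it was 2.90 to 3.34 in wild-type, 3.02 in PiZ1, and 4.89 and 4.66 in the other PiZ arrays. Results are therefore given also without PiZ1, for PiZ1 alone, and with this gap as a covariate. Because the gap was wide only in PiZ2 and PiZ3, the covariate fit rests largely on PiZ1 against wild-type. The covariate fit and that of PiZ1 alone are thus not separate checks. The part of the gap in the results was not tested otherwise.

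In PiZ liver the ammonia transporter gene Rhbg was 4.64-fold higher, while the urea cycle genes Otc and Arg1 and the aspartate carrier gene Slc25a13 were 2.19-fold, 1.62-fold and 2.93-fold lower in their brightest probe sets. The other probe set that rose was the dimmer one of Slc25a15, the ornithine carrier gene, at 1.99-fold. Cps1, Nags, Asl, both probe sets of Glul, the dimmest probe set of Otc and the brighter probe set of Slc25a15 did not pass the test. Rose and fell are used below for a limma adjusted p below 0.05 over all 22626 probe sets, a log2 difference is the PiZ mean less the wild-type mean, given with its standard error (SE), and every group has n = 3.

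**Figure D1:**
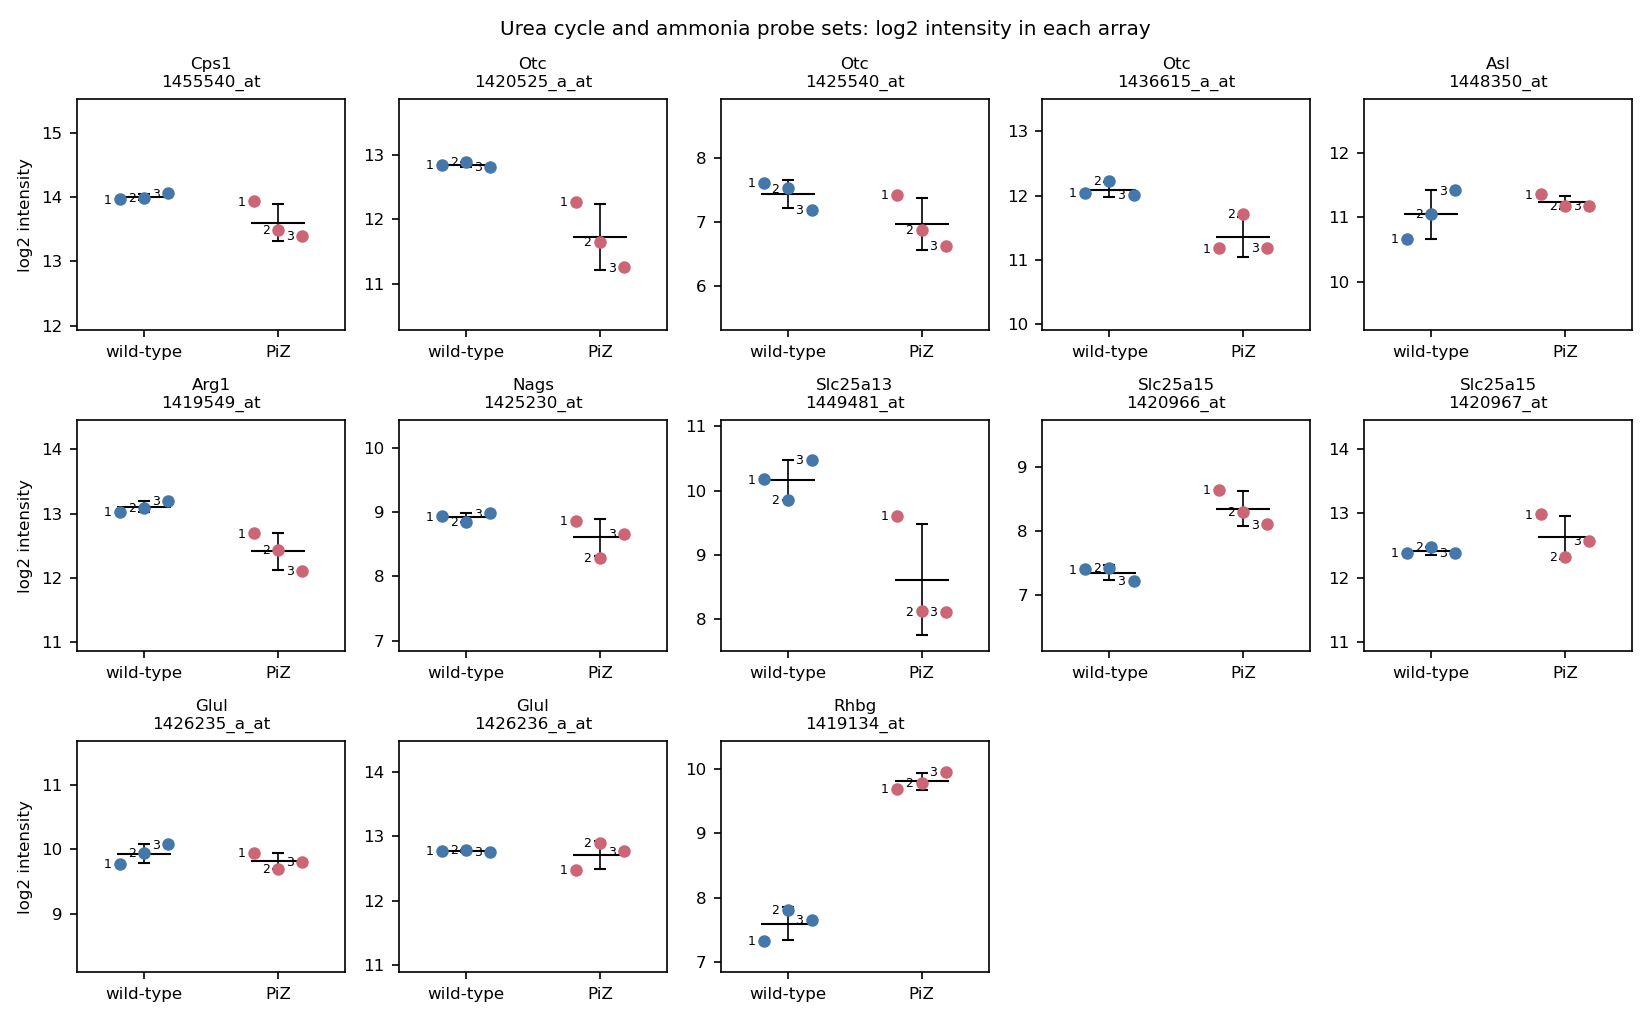
Log2 intensity (vertical axis, each panel spanning the same range of 3.6) of the 13 probe sets in each array, blue for wild-type and red for PiZ, with the replicate number to the left of each point, and the mean and SD in black (n = 3 per group). Rhbg lies between 7.32 and 7.81 in wild-type and between 9.69 and 9.95 in PiZ, and in Slc25a13 the first PiZ array lies far above the other PiZ arrays.

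Of the 13 probe sets, 2 rose and 4 fell. Over all probe sets 19.1% were called, 8.93% higher and 10.2% lower. All 13 had a mean of at least 6 over the arrays, and of the 11818 probe sets that bright 32.0% were called when adjusted among themselves. The groups did not overlap for 7 of the 13, against 42.0% of all probe sets. The median difference of the members was -0.31, that of all probe sets 0.08. Without PiZ1 the counts were 2 higher and 7 lower, where 46.6% of all probe sets were called (25.3% higher and 21.3% lower). With PiZ1 alone against wild-type they were 3 higher and 2 lower, where 15.3% were called (7.12% higher and 8.13% lower), under the assumption that this array varies like wild-type.

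None of the 4 falls passed when any 1 wild-type array was left out. Their adjusted p then ran from 0.0728 to 0.13, and 5.60%, 6.79% or 5.48% of all probe sets were called without WT1, WT2 or WT3. Both rises passed in each of these fits. Without PiZ2 both rises and the fall of Otc in 1436615_a_at passed (10.7% of all called), and without PiZ3 both rises and the fall of Otc in 1420525_a_at (8.20%). With the 3′ to 5′ gap as a covariate 3 probe sets rose, both of Slc25a15 and that of Rhbg, and 1 fell, Otc 1436615_a_at (12.4% of all called).

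**Figure D2:**
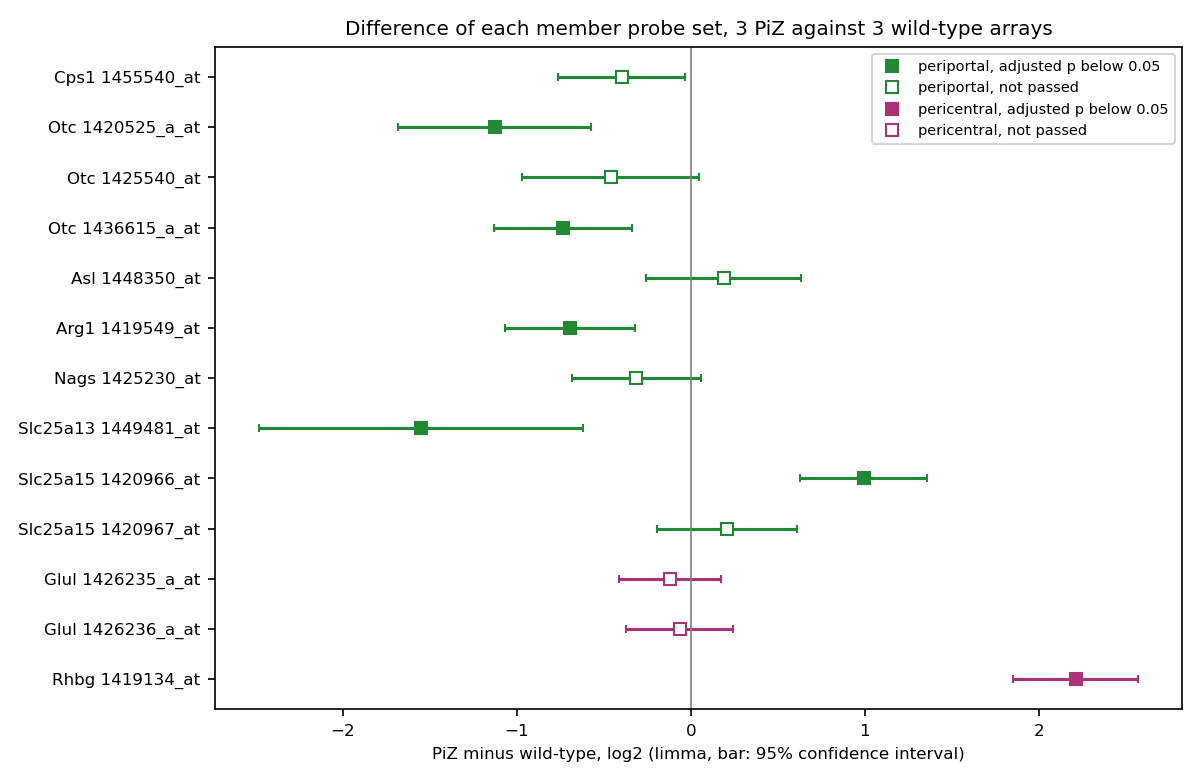
Difference between PiZ and wild-type on the log2 scale (horizontal axis) for the 13 probe sets, with the 95% confidence interval from limma (3 arrays per group). Filled squares have an adjusted p below 0.05; green marks periportal and purple pericentral genes. The 4 filled squares left of 0 are Otc (2 probe sets), Arg1 and Slc25a13, and the 2 right of 0 are Slc25a15 1420966_at and Rhbg.

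Cps1, the first and rate-setting enzyme of the cycle, was the brightest member. It read 13.96, 13.98 and 14.06 in wild-type and 13.93, 13.48 and 13.39 in PiZ. The groups did not overlap, but the highest PiZ array came within 0.03 of the lowest wild-type array. The difference was -0.40 (SE 0.16, adjusted p = 0.11). It was -0.56 without PiZ1 (adjusted p = 0.00287). For PiZ1 by itself it was -0.07 (adjusted p = 0.739), and with the 3′ to 5′ gap as a covariate also -0.07 (adjusted p = 0.796). Of all probe sets 99.7% were dimmer. At such brightness an array can understate a difference, and whether it did so for Cps1 was not tested.

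Nags makes N-acetylglutamate, without which Cps1 is inactive. It read 8.93, 8.84 and 8.98 in wild-type and 8.87, 8.29 and 8.66 in PiZ. PiZ1 lay inside the wild-type range and the other PiZ arrays below it. The difference was -0.31 (SE 0.16, adjusted p = 0.193), and -0.44 without PiZ1 (adjusted p = 0.027). It was -0.05 for PiZ1 by itself (adjusted p = 0.81) and -0.0053 with the covariate (adjusted p = 0.989).

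Otc, the X-linked enzyme that makes citrulline, fell in 2 of its 3 probe sets. The brightest, 1420525_a_at, read 12.84, 12.89 and 12.82 in wild-type and 12.27, 11.64 and 11.25 in PiZ. All PiZ arrays were below all wild-type arrays, by at least 0.55. The difference was -1.13 (SE 0.24, adjusted p = 0.019). It was -1.40 without PiZ1 (adjusted p = 0.000179), -0.58 for PiZ1 by itself (adjusted p = 0.0204), and -0.61 with the 3′ to 5′ gap as a covariate (adjusted p = 0.107).

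The second bright Otc probe set, 1436615_a_at, ordered the PiZ arrays differently. It read 12.04, 12.23 and 12.00 in wild-type and 11.18, 11.71 and 11.18 in PiZ, so that PiZ1 was as low as PiZ3 and PiZ2 was the nearest to wild-type. The difference was -0.74 (SE 0.17, adjusted p = 0.025), -0.65 without PiZ1 (adjusted p = 0.0145), and -0.91 for PiZ1 by itself (adjusted p = 0.009). With the 3′ to 5′ gap as a covariate it was -0.99 (adjusted p = 0.0191). The call was lost after cyclic loess (adjusted p = 0.067), a further quantile normalization (0.0589) and centring on reference genes (0.109).

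The dim Otc probe set, 1425540_at, read 7.60, 7.52 and 7.19 in wild-type and 7.42, 6.88 and 6.62 in PiZ. The groups overlapped through PiZ1. Its difference of -0.46 (SE 0.22, adjusted p = 0.165) did not pass. It was -0.68 without PiZ1 (adjusted p = 0.00788), -0.02 for PiZ1 by itself (adjusted p = 0.96) and -0.04 with the covariate (adjusted p = 0.929). All 3 probe sets of Otc thus read lower on average in PiZ, with 95% intervals of -1.68 to -0.57, -1.13 to -0.34 and -0.97 to 0.05 in the order described.

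The stretch before the start of Otc is shown because 2 of its probe sets fell, that of Slc25a13 because it had the largest fall among the members, and that of Glul as a pericentral gene that did not pass. Each is the 250 bases before the RefSeq start (build GRCm38.p6), 5′ to 3′ on the gene's strand. The RefSeq table matched 5 of the 10 listed genes: Otc, Slc25a13, Slc25a15, Nags and Glul. Capitals mark matches to the motifs searched. Otc lies at chrX:10252055-10252304 on the plus strand, Slc25a13 at chr6:6217174-6217423 on the minus strand, and Glul at chr1:153899679-153899928 on the plus strand.
Otc: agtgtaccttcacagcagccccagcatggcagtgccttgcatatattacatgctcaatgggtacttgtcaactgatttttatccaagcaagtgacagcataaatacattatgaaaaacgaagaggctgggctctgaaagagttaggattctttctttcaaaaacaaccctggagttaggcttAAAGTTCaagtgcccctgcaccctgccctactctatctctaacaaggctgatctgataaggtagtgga
Slc25a13: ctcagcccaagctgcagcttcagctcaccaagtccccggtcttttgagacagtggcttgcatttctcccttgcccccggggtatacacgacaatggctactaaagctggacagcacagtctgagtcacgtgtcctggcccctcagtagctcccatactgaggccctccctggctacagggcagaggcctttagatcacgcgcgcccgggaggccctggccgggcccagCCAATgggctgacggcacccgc
Glul: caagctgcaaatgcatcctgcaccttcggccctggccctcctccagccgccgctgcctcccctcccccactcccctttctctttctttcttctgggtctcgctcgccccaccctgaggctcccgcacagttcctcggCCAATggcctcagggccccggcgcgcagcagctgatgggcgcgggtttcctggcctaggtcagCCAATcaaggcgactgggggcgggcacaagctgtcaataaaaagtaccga

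Both strands were searched for the HNF4A half-site AAAGTCC and its variant AAAGTTC, the C/EBP motif TTGCNNAA, the amino acid response element TGATGNAA, the TCF motif CTTTGAT, the CCAAT box and the TATA box TATAAA. The variant was added after the sequences had been seen. AAAGTTC starts 68 bases before the start of Otc on its own strand and is found in 3.28% of all 32851 such windows. CCAAT starts 22 bases before the start of Slc25a13, and 113 and 50 bases before that of Glul, and is found in 33.9% of all windows. A match of CTTTGAT lies 204 bases before the start of Nags on the opposite strand, and that motif is found in 3.2% of all windows. The letters of the other motifs are not in the member windows, and are found in 3.58% (AAAGTCC), 9.56% (TTGCNNAA), 3.45% (TGATGNAA) and 12.4% (TATAAA) of all windows. G and C make up 43.6% of the Otc stretch, 62.8% of that of Slc25a13 and 64.8% of that of Glul, against a median of 52.4% over all windows.

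The cytosolic enzymes did not move alike. Asl, which splits argininosuccinate into arginine and fumarate, read 10.67, 11.06 and 11.42 in wild-type and 11.36, 11.18 and 11.17 in PiZ. All PiZ arrays lay inside the wild-type range, which was the widest of any urea cycle enzyme here. The difference was 0.19 (SE 0.19, adjusted p = 0.499), with a 95% interval from -0.26 to 0.63. It was 0.13 without PiZ1, 0.31 for PiZ1 by itself and 0.29 with the covariate, and passed in none of these fits (adjusted p = 0.624, 0.487 and 0.541).

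Arg1, the arginase that releases urea, read 13.03, 13.10 and 13.20 in wild-type and 12.69, 12.44 and 12.11 in PiZ. All PiZ arrays were below all wild-type arrays, by at least 0.34. Arg1 fell by 0.70 on the log2 scale (SE 0.16, adjusted p = 0.0249). The difference was -0.84 without PiZ1 (adjusted p = 0.00142) and -0.42 for PiZ1 by itself (adjusted p = 0.0691). It did not pass with the 3′ to 5′ gap as a covariate (-0.44, adjusted p = 0.155), after centring on reference genes (-0.56, adjusted p = 0.111), or without PiZ2 (adjusted p = 0.0645) or PiZ3 (0.062).

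Slc25a13, also called citrin, exports the aspartate that the cycle joins to citrulline. It read 10.17, 9.85 and 10.48 in wild-type and 9.61, 8.12 and 8.12 in PiZ. All PiZ arrays were below all wild-type arrays, PiZ1 by 0.24 and PiZ2 and PiZ3 by over 1. It fell by 1.55 on the log2 scale (SE 0.40, adjusted p = 0.0355), with the largest SD of any member in PiZ (0.859). The difference was -2.05 without PiZ1 (adjusted p = 0.000122), -0.56 for PiZ1 by itself (adjusted p = 0.157) and -0.49 with the 3′ to 5′ gap as a covariate (adjusted p = 0.136). It also did not pass without PiZ2 (adjusted p = 0.106) or PiZ3 (0.124).

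Slc25a15, also called ORC1, brings ornithine into mitochondria in exchange for citrulline, and its 2 probe sets differed. The dimmer, 1420966_at, read 7.40, 7.43 and 7.22 in wild-type and 8.64, 8.30 and 8.10 in PiZ. All PiZ arrays were above all wild-type arrays, by at least 0.68. It rose by 0.99 (SE 0.16, adjusted p = 0.00766), by 0.85 without PiZ1 (adjusted p = 0.000903) by 1.29 for PiZ1 by itself (adjusted p = 0.00332) and by 1.26 with the covariate (adjusted p = 0.00526).

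The brighter Slc25a15 probe set, 1420967_at, read 12.38, 12.48 and 12.38 in wild-type and 12.98, 12.32 and 12.57 in PiZ. PiZ1 was the highest array and PiZ2 the lowest, so the groups overlapped. The difference was 0.21 (SE 0.17, adjusted p = 0.402). It was 0.03 without PiZ1 (adjusted p = 0.843) and 0.57 both for PiZ1 by itself (adjusted p = 0.024) and with the covariate (adjusted p = 0.0463). The annotation gives the same source sequence for both probe sets, and whether they read the same transcripts was not tested.

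Rhbg, the ammonia transporter of the membrane facing the blood, had the largest difference among the members. It read 7.32, 7.81 and 7.66 in wild-type and 9.69, 9.79 and 9.95 in PiZ. All PiZ arrays were above all wild-type arrays, by at least 1.88, and PiZ1 lay close to the others. Rhbg rose by 2.21 (SE 0.15, adjusted p = 0.000414), with a 95% interval from 1.85 to 2.57. The rise was 2.27 without PiZ1 (adjusted p = 6.6e-05), 2.09 for PiZ1 by itself (adjusted p = 0.00259) and 2.04 with the 3′ to 5′ gap as a covariate (adjusted p = 0.00159). It passed in all 18 alternative fits.

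Glul, glutamine synthetase, did not pass in either probe set. The brighter, 1426236_a_at, read 12.77, 12.79 and 12.76 in wild-type and 12.47, 12.89 and 12.76 in PiZ. PiZ1 was the lowest array and PiZ2 the highest. The difference was -0.06 (SE 0.13, adjusted p = 0.748), with a 95% interval from -0.37 to 0.24. The dimmer, 1426235_a_at, read 9.78, 9.94 and 10.08 in wild-type and 9.94, 9.70 and 9.80 in PiZ, with a difference of -0.12 (SE 0.13, adjusted p = 0.506). Its groups overlapped as well. Both differences changed sign after cyclic loess and after centring on reference genes, that of 1426236_a_at also after a further quantile normalization and without PiZ1, and that of 1426235_a_at with the covariate and for PiZ1 by itself.

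**Figure D3:**
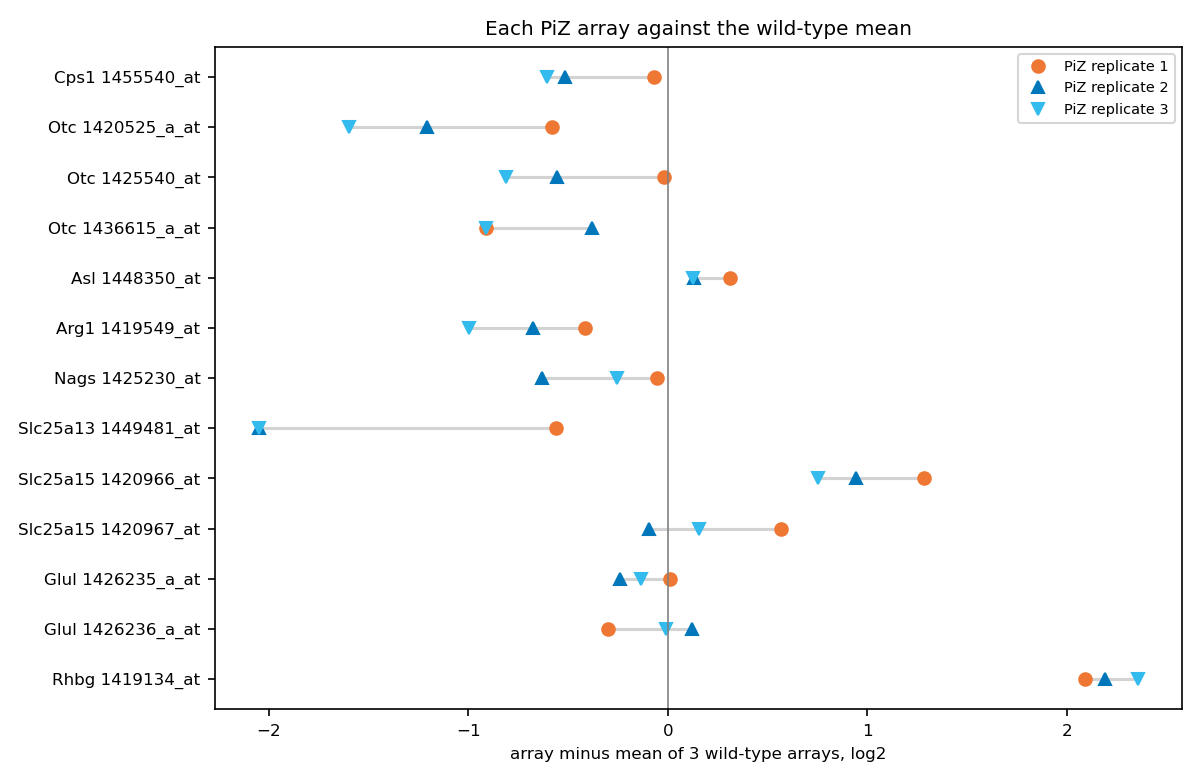
Each PiZ array minus the mean of the 3 wild-type arrays (horizontal axis, log2) for the 13 probe sets, circle for PiZ1 and triangles for PiZ2 (up) and PiZ3 (down). Cps1, Nags and Otc 1425540_at in PiZ1 lie within 0.1 of the wild-type mean while PiZ2 and PiZ3 lie lower, and the 3 arrays of Rhbg lie close together at 2.09, 2.19 and 2.36.

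The PiZ arrays spread more than the wild-type arrays for 10 of the 13 probe sets, as for 78.5% of all probe sets. The median SD of the members was 0.114 in wild-type and 0.291 in PiZ. Averaged over PiZ2 and PiZ3, 8 members were below the wild-type mean, and for 7 of these PiZ1 was closer to it. The exception was Otc 1436615_a_at. The same count over all probe sets was not made. Over all probe sets PiZ1 also correlated more highly with wild-type arrays (0.981 to 0.983) than PiZ2 and PiZ3 did (0.962 to 0.97).

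The periportal and the pericentral genes are set side by side by the brightest probe set of each. For the 7 periportal genes, 0 rose, 3 fell (Otc, Arg1 and Slc25a13) and 4 did not pass, with a median of -0.40. Over all 12393 genes, taken the same way, 9.99% were higher and 11.2% lower, and the median was 0.08. Relative to the wild-type mean, the periportal median was -0.07 in PiZ1, -0.63 in PiZ2 and -0.61 in PiZ3, and single wild-type arrays ran from -0.03 to 0.06. Of the 2 pericentral genes Rhbg rose and Glul did not pass. A difference between the zones was not tested, since the members were listed with results of these data known. In whole liver, fewer cells of a type and less RNA per cell cannot be told apart.

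Other genes of nitrogen metabolism and zonation were counted in 6 lists, each gene by its brightest probe set, and 39 of 98 measured genes changed. Of all genes read by their brightest probe set, 21.2% changed. The list genes that changed numbered 57 without PiZ1, where 48.5% of all genes did (26.6% higher and 21.9% lower), and 38 for PiZ1 by itself, where 16.8% did (7.96% higher and 8.82% lower). Of the list genes named below as changed, Gamt, Slc38a3, Hal, Ampd2, Hsd17b6 and Pigr did not pass with the covariate, at an adjusted p of 0.332, 0.0845, 0.265, 0.178, 0.214 and 0.212. The first 4 of these passed in 1 of the 6 fits that left out an array, that without PiZ1, and Hsd17b6, Pigr and Tat in 2 of the 6. Without WT3 the adjusted p of Slc13a3 was 0.0511 and that of Cebpa 0.0527, and without WT1 that of Nr3c1 was 0.0509; the other changed genes named passed in all 6. Among 13 other genes of the urea cycle and of arginine, 1 rose and 1 fell, with a median of -0.10. Aldh18a1, which makes the precursor of proline and ornithine from glutamate, rose by 2.25 (SE 0.15, adjusted p = 0.000361), although its 5 probe sets ran from 0.66 to 2.25. Gamt, which makes creatine, fell by 0.55 on the log2 scale (SE 0.16, adjusted p = 0.0472). Ornithine aminotransferase Oat differed by -0.03 (SE 0.16, adjusted p = 0.912) and arginase Arg2 by 0.11 (SE 0.17, adjusted p = 0.672), the latter at a low level between 3.51 and 4.10. Ass1, Slc25a12 and Sirt5 were not named by a probe set of their own.

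The list of glutamine, glutamate and aminotransferase genes held the most changes of the 6 lists. All lists were written with earlier results of these data known, so this ranking can reflect how they were chosen. Of 21 measured, 9 rose and 4 fell, where 9.99% of all genes were higher and 11.2% lower by their brightest probe set. The median of the list was 0.44 (0.56 in PiZ1 and 0.40 in PiZ2 and PiZ3). Asns, which uses glutamine to make asparagine, rose by 3.70 (SE 0.25), the amino acid transporter subunit Slc3a2 by 1.90 (SE 0.19) and the neutral amino acid transporter Slc1a4 by 1.34 (SE 0.21), although its 3 probe sets ran from 0.36 to 1.34. Gfpt1, which spends glutamine on hexosamines, rose by 1.08 (SE 0.13) in its brightest probe set and read -0.12 in the other. Even the brightest was dim, with a mean of 4.89 over the arrays. Slc38a3, a glutamine transporter of hepatocytes, read 12.64, 12.80 and 13.01 in wild-type and 12.31, 12.39 and 12.30 in PiZ, and fell by 0.48 on the log2 scale (SE 0.12, adjusted p = 0.0368). Glutamate dehydrogenase Glud1 (-0.64, SE 0.21, adjusted p = 0.0725) and the pericentral glutamate importer Slc1a2 (-0.38, SE 0.12, adjusted p = 0.0659) did not pass, and both did without PiZ1 (adjusted p = 0.000336 and 0.00771).

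Genes that release or carry ammonia went both ways. Of 14 measured, 2 rose and 2 fell, with a median of 0.04. Histidine ammonia-lyase Hal fell by 1.67 on the log2 scale (SE 0.45, adjusted p = 0.0401). Its difference was -0.52 both for PiZ1 by itself (adjusted p = 0.0762) and with the covariate. Ftcd, a later step of histidine breakdown, fell by 1.29 (SE 0.16, adjusted p = 0.00343). The monoamine oxidase Maoa rose by 1.46 (SE 0.11, adjusted p = 0.000566) and the AMP deaminase Ampd2 by 0.69 (SE 0.16, adjusted p = 0.0288). Rhcg and Rhag, the relatives of Rhbg, were dim and differed by 0.15 (SE 0.13) and -0.15 (SE 0.10).

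**Figure D4:**
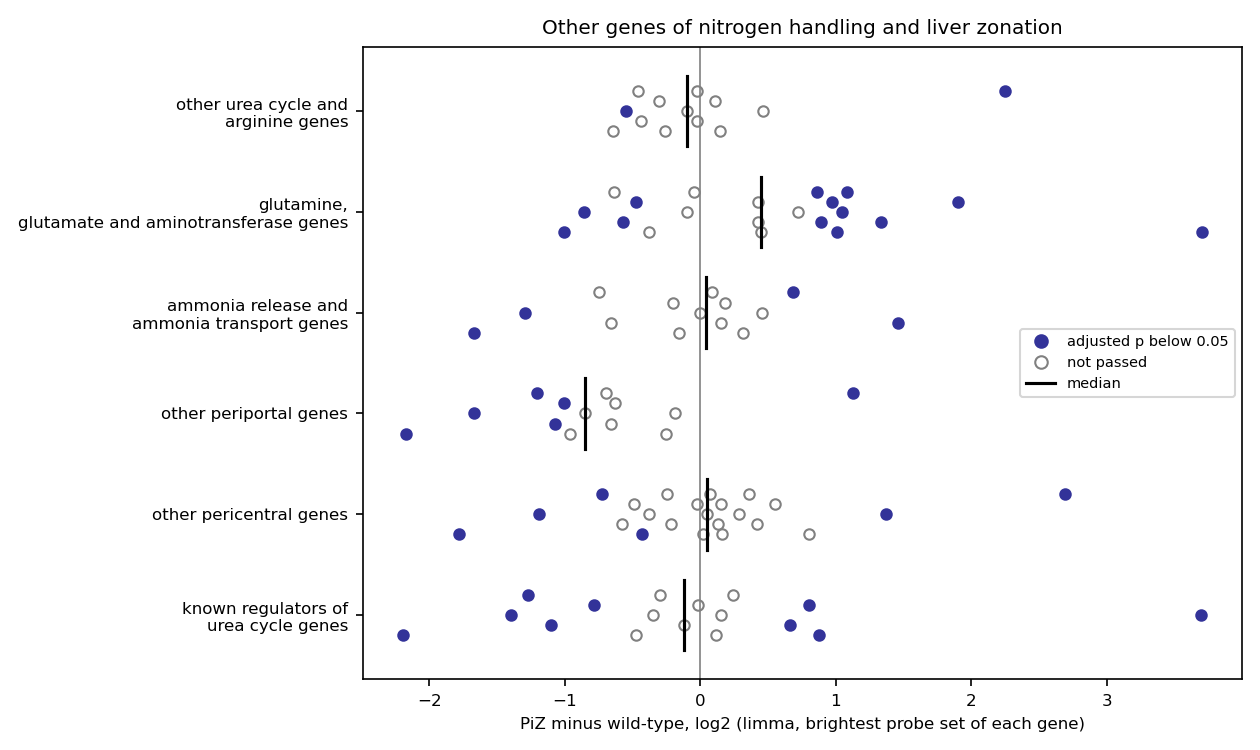
Difference between PiZ and wild-type (horizontal axis, log2) of the genes of 6 lists, 1 point per gene from its brightest probe set, filled where the limma adjusted p was below 0.05, with the median of each list as a black line. Periportal genes have a median of -0.85 and glutamine and glutamate genes one of 0.44.

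Of 13 other periportal genes, 1 rose and 5 fell, with a median of -0.85. It was -0.05 in PiZ1 and -1.18 in PiZ2 and PiZ3. Besides Hal, the largest changes were those of the steroid dehydrogenase gene Hsd17b6 (-2.17, SE 0.52, adjusted p = 0.0281; its other probe set read 0.57), the immunoglobulin receptor Pigr (-1.20, SE 0.32, adjusted p = 0.0388), and tyrosine aminotransferase Tat, which rose by 1.12 (SE 0.28, adjusted p = 0.0306). Without PiZ1 the counts were 1 higher and 9 lower, where 26.6% of all genes were higher and 21.9% lower by their brightest probe set.

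Of 23 other pericentral genes, 2 rose and 4 fell, with a median of 0.05, which was 0.07 in PiZ1 and 0.05 in PiZ2 and PiZ3. The glutathione transferase Gstm3 rose by 2.70 (SE 0.12, adjusted p = 5.1e-05) and the dicarboxylate carrier Slc13a3 by 1.37 (SE 0.23, adjusted p = 0.00968), although its 4 probe sets ran from 0.33 to 1.37. The cytochrome Cyp2c37 fell by 1.78 on the log2 scale (SE 0.25, adjusted p = 0.0054) and Rnf43 by 1.19 (SE 0.18, adjusted p = 0.00709).

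Of 17 measured regulators listed for urea cycle and hepatocyte genes, 4 rose and 5 fell, with a median of -0.12. Hnf4a, a nuclear receptor of mature hepatocytes, differed by -0.12 (SE 0.11, adjusted p = 0.47), and its 4 probe sets ran from -0.64 to -0.05. Cebpa, a liver factor whose loss is known to lower Cps1, fell by 0.78 on the log2 scale (SE 0.13, adjusted p = 0.0093). Cps1 itself did not pass (-0.40, SE 0.16, adjusted p = 0.11), and a link between these genes was not tested. The pioneer factors Foxa1 and Foxa2 fell by 2.20 (SE 0.16) and 1.27 (SE 0.21), and the glucocorticoid receptor gene Nr3c1 by 1.40 (SE 0.24), although its 3 probe sets ran from -1.40 to -0.02. Ddit3 (Chop), a stress-induced factor, rose by 3.70 (SE 0.14, adjusted p = 2.7e-05).

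Markers of the cell types that whole liver holds were read beside these values. Of 7 hepatocyte markers 1 fell (Apob, -0.81, SE 0.18; adjusted p = 0.0992 with the covariate) and 0 rose, and their mean log2 level was 14.49 to 14.52 in wild-type, 14.42 in PiZ1, and 14.24 and 14.20 in PiZ2 and PiZ3. Of 7 macrophage markers 3 rose (Clec4f, Marco and Cd5l), while Adgre1, Cd68, Vsig4 and C1qa did not pass. The median difference of the 7 was 0.07, and their mean was 8.69 to 8.83 in wild-type and 8.82 to 9.26 in PiZ. Of 5 neutrophil markers 2 rose, S100a8 by 2.76 (SE 0.25) and S100a9 by 2.27 (SE 0.25), while Camp, Ngp and Elane did not pass, and the mean was 4.67 to 5.09 in wild-type and 5.90 to 6.10 in PiZ. Of 7 endothelial markers 1 rose (Vwf, adjusted p = 0.119 with the covariate), and of 5 cholangiocyte, 8 stellate, 7 lymphocyte and 4 erythroid markers 0 passed, nor did any for PiZ1 by itself. Without PiZ1, 3 macrophage, 2 neutrophil, 2 cholangiocyte, 2 stellate, 1 erythroid and 1 endothelial marker rose. In the same fit 3 hepatocyte markers and 1 marker each of macrophages, stellate and endothelial cells fell. Of all genes read by their brightest probe set, 48.5% were called in that fit (26.6% higher and 21.9% lower), against 21.2% with all arrays. The part of the marked cell types in the members' differences was not tested.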

How the data were processed

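The 6 arrays were hybridised with labelled cRNA from liver, per the labels' protocols. The authors deposited 1 table of log2 intensities for every probe set, made with affy by RMA according to the submitters' processing notes. RMA subtracts background, equalises array distributions and summarises probes, which removes any shift common to most genes. Tool versions and the chip definition were not found in the labels or headers, and the log2 scale was read from the values (2.3 to 14.98). There were no detection calls, so dim probe sets may be background.

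Leaving out 64 controls, 22626 of 22690 probe sets were fitted, of which GEO's platform annotation gave 20380 a single gene, 691 several and 1555 none. The fit used limma 3.58.1 in R 4.3.3 (lmFit, eBayes, two-sided, Benjamini-Hochberg over all probe sets). Its p-values rest on the spread among the arrays of each group, pooled in part over all probe sets by eBayes, and 6 arrays limit the precision. The PiZ arrays differ in the 3′ to 5′ gap as well as by animal, so their spread is not that of animals alone. On simulated data of this size the fit called 60% of probe sets changed by 1 and 92% of those changed by 2 (log2), with 10 false calls among 162. The simulation used independent noise of equal spread in both groups and changed only 200 probe sets. In these data 4331 were called and 78.5% of all probe sets spread more in PiZ, so the simulated rates need not hold here. Tables were written by Python 3.11.15 (pandas 2.3.3) and plots by matplotlib 3.10.9.

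The members, gene lists and tests were chosen with earlier results of these data known. Named genes were all members, up to 4 changed genes per list by size, and Glud1, Oat, Slc1a2, Slc38a3, Arg2, Hnf4a and Cebpa where measured; 1 further gene of the rule is not reported here. Rhcg, Rhag and the named cell type markers were chosen after their values were seen. Alternatives covered the choice of probe set, a filter on dim probe sets (mean under 6), scaling, variance model, array weights, a stricter threshold (0.01), a replicate block, the 3′ to 5′ gap of control transcripts as covariate, and the omission of each array.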

Additional observations from a re-analysis of the deposited data

How the results depend on the processing

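The count of probe sets called, 4331, was 2860 with the mean of a gene's probe sets (of 12393 genes), 10986 with array weights, 2812 with the 3′ to 5′ covariate and 1133 at a threshold of 0.01, and 1239 to 10547 when 1 array was left out. The 6 changed members became 2 at a threshold of 0.01 and 2 to 9 when 1 array was left out. The 39 changed genes of the 6 lists became 65 with array weights, 23 at 0.01, and 22 to 57 when 1 array was left out. Other alternatives kept these 3 counts within 1.5 times. Centring on reference genes moved the median of all probe sets from 0.08 to 0.21 and gave 56.1% of calls higher, against 46.6%. The 2 rises of members passed in every alternative fit that gave them a value.

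The Glul differences changed sign, with no call in any fit. That of 1426235_a_at became 0.0048 after cyclic loess, 0.014 after centring, 0.0092 with the covariate and 0.0102 in PiZ replicate 1 alone. That of 1426236_a_at became 0.068 after cyclic loess, 0.018 after a further quantile normalization, 0.071 after centring and 0.054 without PiZ replicate 1. With 1 array left out, 1426236_a_at ran from -0.15 to 0.054, and Asl from -0.00303 (without wild-type replicate 1) to 0.37. The cause of these changes was not tested.

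Deviations of same-numbered arrays correlated at 0.30, 0.30 and -0.04, and those of differently numbered arrays at -0.40 to 0.29. With 3 arrays per group, whether replicate numbers pair the arrays could not be decided. The fit with the replicate block called 5189 probe sets, 6 of them members, and 43 of the list genes.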
